A study of Mus musculus with 8 samples.

Results

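The telomerase and shelterin genes were read out as 10 of the 24354 gene symbols listed for this series. They were chosen by name, with earlier results of these data known. They were Tert, Dkc1 and Nhp2 of telomerase, Terf1, Terf2, Tinf2, Pot1a, Pot1b and Acd of shelterin, and Rif1. All 10 were listed, and all 10 were among the 13239 genes with a mean of at least 1 FPKM (fragments per kilobase of transcript per 1000000 mapped fragments) in at least 1 group, which were the genes tested. Polyadenylated RNA was sequenced in 8 libraries, 2 from each of 4 mouse cell groups. The ESCs were wild-type embryonic stem cells of the E14 line, grown in serum with LIF. The NSCs were OG2+/-/ROSA26+/- neural stem cells, heterozygous for a GFP transgene driven by the distal Oct4 enhancer and for ubiquitous lacZ, grown on gelatin with EGF and FGF2. The EPSCs were wild-type extended pluripotent stem cells from 8-cell embryos of the C57BL/6 strain at passage 15, kept in N2B27 with LCDM, that is minocycline hydrochloride, dimethindene maleate, CHIR99021 and human LIF. The hybrid cells were made by fusing EPSCs with NSCs in polyethylene glycol, were picked by Oct4-GFP, were near-tetraploid, and were kept in the same LCDM medium until passage 10. ESCs, EPSCs and hybrid cells shared a feeder layer of mitomycin C-treated C3H mouse embryonic fibroblasts, and NSCs had none. The libraries of EPSCs and of hybrid cells each carried the name of 1 line, and no label places the replicates in separate derivations or fusions, so the p-values measure only the spread between these libraries, which may be technical. A legend of the study, to a ratio of other transcripts in 3 of these groups, speaks of independent experiments without saying what was repeated. The sources used here do not state that the sequenced EPSC line was the line used for fusion. EPSCs and NSCs are called parents below in the sense of cell type.

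Telomerase adds hexamer repeats to chromosome ends by copying a template within its own RNA. Its catalytic protein, Tert, is the part most often switched off in somatic cells, whereas the proteins that bind the H/ACA domain of the RNA (dyskerin, encoded by Dkc1, with Nhp2, Nop10 and Gar1) also serve small nucleolar RNAs and are made in nearly all cells. Shelterin coats the repeats. Terf1 and Terf2 bind double-stranded repeats, Pot1 binds the single-stranded end, Acd (TPP1) joins Pot1 to the complex and recruits telomerase, and Tinf2 (TIN2) bridges the parts. Mice carry the Pot1 genes Pot1a and Pot1b, where humans carry a single POT1. Rif1 acts in double-strand break repair and in the timing of DNA replication, and in yeast it is a telomere protein.

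The sequence that these proteins copy and protect is shown first. In the annotated telomerase RNA, Terc-201 of GENCODE M21, the bases CTAACCCT lie at 29 to 36 of 423 and are complementary to the repeat. They are in capitals within bases 19 to 46. The c just before them, not in capitals, extends the complementary run.
Terc template: gcctcggcacCTAACCCTgattttcatt
Terc itself was listed between 0 and 1.63 FPKM in these poly-A libraries, a selection that does not capture it reliably, and it was not compared.

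The promoters of 5 of the genes are given next, each a window of 300 bases around the annotated start, as RefSeq gives them on GRCm38.p6. Promoter sequences were matched for 8 of the 10 genes, all but Terf1 and Rif1. Tert, Dkc1 and Nhp2 are shown as the telomerase genes, and Pot1a and Pot1b as the duplicated pair. They lie at chr13:73626661-73626960 (plus strand, Tert), chrX:75095604-75095903 (plus strand, Dkc1), chr11:51619523-51619822 (plus strand, Nhp2), chr6:25809169-25809468 (minus strand, Pot1a) and chr17:55712587-55712886 (minus strand, Pot1b). Capitals mark matches, on either strand, to any of 5 short motifs that were chosen after the sequences had been seen: the E-box CACGTG, the GC box GGGCGG, the ETS core CCGGAA, the CRE half-site TGACGT and CCAAT.
Tert: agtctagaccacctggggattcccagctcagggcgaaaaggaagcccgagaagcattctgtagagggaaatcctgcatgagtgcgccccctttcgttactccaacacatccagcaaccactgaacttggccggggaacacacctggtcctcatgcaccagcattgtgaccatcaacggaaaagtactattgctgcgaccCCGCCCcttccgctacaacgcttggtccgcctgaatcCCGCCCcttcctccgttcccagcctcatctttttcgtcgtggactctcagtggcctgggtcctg
Dkc1: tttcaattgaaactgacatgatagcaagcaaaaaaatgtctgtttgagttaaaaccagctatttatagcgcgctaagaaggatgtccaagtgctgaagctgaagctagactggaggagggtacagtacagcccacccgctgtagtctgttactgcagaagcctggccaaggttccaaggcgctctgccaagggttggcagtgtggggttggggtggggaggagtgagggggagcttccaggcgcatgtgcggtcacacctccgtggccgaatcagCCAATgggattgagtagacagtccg
Nhp2: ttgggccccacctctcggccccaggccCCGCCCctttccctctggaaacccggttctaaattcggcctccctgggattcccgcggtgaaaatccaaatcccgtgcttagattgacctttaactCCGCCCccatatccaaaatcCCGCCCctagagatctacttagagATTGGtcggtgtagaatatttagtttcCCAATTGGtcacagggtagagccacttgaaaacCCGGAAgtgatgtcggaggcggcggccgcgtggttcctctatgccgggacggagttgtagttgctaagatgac
Pot1a: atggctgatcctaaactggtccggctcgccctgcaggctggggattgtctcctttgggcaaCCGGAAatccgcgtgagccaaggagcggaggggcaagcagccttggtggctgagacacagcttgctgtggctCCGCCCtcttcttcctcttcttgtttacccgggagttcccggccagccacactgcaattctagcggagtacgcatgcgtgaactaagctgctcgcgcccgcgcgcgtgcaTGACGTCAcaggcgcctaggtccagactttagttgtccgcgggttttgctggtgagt
Pot1b: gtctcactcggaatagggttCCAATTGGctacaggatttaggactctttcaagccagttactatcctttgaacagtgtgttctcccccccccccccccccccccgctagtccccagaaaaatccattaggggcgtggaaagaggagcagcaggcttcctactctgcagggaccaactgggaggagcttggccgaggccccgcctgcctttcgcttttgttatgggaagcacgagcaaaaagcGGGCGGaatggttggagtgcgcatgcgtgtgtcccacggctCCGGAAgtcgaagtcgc
Of all 32851 promoter windows, 7.15% held the E-box, 35.7% the GC box, 14.9% the ETS core, 7.51% the CRE half-site and 37.4% CCAAT. Tert held 2 GC boxes and none of the other motifs. Dkc1 held 1 CCAAT, past the start, and none of the others. Nhp2 held 3 GC boxes, 1 ETS core and 3 CCAAT. Pot1a held 2 CRE half-sites that overlap on opposite strands close to its start, with 1 GC box and 1 ETS core. Pot1b held 2 overlapping CCAAT, 1 GC box and 1 ETS core, and no CRE half-site. A match is a description of the letters, and nothing was measured here on the binding of any factor.

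Values are FPKM as deposited, and differences were tested with limma on log2(FPKM + 1), all 4 groups in 1 fit, with Benjamini-Hochberg adjustment over the 13239 genes; a gene is said to be called at an adjusted p under 0.05. The effective depth, inferred from the spacing of low FPKM values, lay between 22 and 32.6 in units of 1000000 fragments a library. FPKM sums were 415240 and 415412 in NSCs and 600674 to 653796 in the other libraries. Markers of each cell group were in place. The 6 pluripotency markers summed to 4138 to 5035 FPKM in ESCs, EPSCs and hybrid cells, and in NSCs 5 of these 6 were under 1 FPKM, with Sox2 as the exception. The 6 neural markers summed to 3635 and 3680 FPKM in NSCs and to 10.8 to 19.2 elsewhere. The 7 fibroblast markers, which feeder cells would carry, summed to 1.09 and 1.20 FPKM in NSCs, with all 7 under 1 FPKM on average, to 10.6 and 11.6 in ESCs, 69.8 and 71.7 in EPSCs, and 206 and 277 in hybrid cells. Their part in the differences below was not tested. In bulk libraries, fewer cells of a type and less RNA per cell cannot be told apart.

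Tert was present in the 3 pluripotent groups and close to the detection limit in NSCs. It stood at 1.67 and 1.47 FPKM in ESCs, at 2.02 and 1.50 in EPSCs, at 1.69 and 1.50 in hybrid cells, and at 0.109 and 0.0322 in NSCs. Every pluripotent library lay above both NSC libraries, and the 3 pluripotent groups overlapped one another. The NSC values correspond to about 12.8 and 3.83 fragments, against a floor of 3 fragments, which here is 0.0255 and 0.0252 FPKM. Mean Tert in hybrid cells (1.59 ± 0.134 FPKM, SD, n = 2) was 22.6 times that in NSCs (0.0704 ± 0.0540). The ratio was 24.9 for EPSCs and 22.2 for ESCs. These ratios rest on the low NSC values: for hybrid cells it was 49.4 without NSC replicate 1 and 14.7 without NSC replicate 2, for EPSCs 54.5 and 16.2, and for ESCs 48.6 and 14.4. On the log2(FPKM + 1) scale, which understates the change of so low a gene, Tert was higher than in NSCs by 1.28 ± 0.11 (SE) in hybrid cells, by 1.36 in EPSCs and by 1.26 in ESCs, with adjusted p-values of 1.2e-05, 8.5e-06 and 1.4e-05 in limma. Tert entered the test only through the groups in which it was high. Between hybrid cells and EPSCs the difference was −0.08, with a 95% interval from −0.34 to 0.17, and between hybrid cells and ESCs it was 0.02, from −0.24 to 0.27. Neither was called, and left-out libraries changed the sign of both within the range given with the processing alternatives.

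Dkc1 and Nhp2, the H/ACA proteins, were several fold higher in every pluripotent group than in NSCs in FPKM as deposited. Dkc1 stood at 124 and 119.5 FPKM in ESCs, 29.9 and 32.0 in NSCs, 146 and 131 in EPSCs, and 169 and 123 in hybrid cells. Nhp2 stood at 285 and 275 FPKM in ESCs, 93.6 and 100.3 in NSCs, 324 and 263 in EPSCs, and 380.3 and 337 in hybrid cells. For both genes, the NSC libraries were the lowest and touched no other group. Dkc1 rose over NSCs by 2.18 ± 0.14 (log2, SE) in hybrid cells, 2.12 in EPSCs and 1.94 in ESCs, with limma adjusted p-values of 2e-06, 2.4e-06 and 4.2e-06. Nhp2 rose over NSCs by 1.87 ± 0.10 in hybrid cells, 1.58 in EPSCs and 1.52 in ESCs, with adjusted p-values of 1.1e-06, 2.9e-06 and 3.9e-06. These transcripts are orders of magnitude more abundant per length than Tert.

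Among the pluripotent groups, Dkc1 was not called in any comparison. Its hybrid libraries, at 169 and 123 FPKM, enclosed both EPSC values and reached down to the ESC level, and without hybrid replicate 2 the difference from EPSCs (0.29) and from ESCs (0.47) was called. Nhp2 was highest in hybrid cells, with both libraries above all others. It was 0.35 above ESCs (adjusted p = 0.0196 in limma), a call that was lost without ESC replicate 1 (0.38), ESC replicate 2 (0.33) or hybrid replicate 1 (0.27), and under quantile normalization (0.15). Against EPSCs the Nhp2 difference was 0.29, with a 95% interval from 0.05 to 0.54 before adjustment and an adjusted p of 0.0566, and it was called in 5 of 16 alternatives: without EPSC replicate 1 (0.44) or hybrid replicate 2 (0.38), with libraries scaled to a sum of 1000000 (0.29), under quantile normalization (0.32), and with a replicate block (0.29). Nhp2 lies on chromosome 11, which has 1026 tested genes. Their median in hybrid cells was 0.18 against EPSCs and 0.23 against ESCs, where all tested genes had 0 and 0.04. The part of this shift in the Nhp2 differences was not tested.

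The other core H/ACA proteins were also lowest in NSCs. Nop10 was at 154 and 151 FPKM in ESCs, 62.7 and 63.5 in NSCs, 201 and 194 in EPSCs, and 204 and 187 in hybrid cells. Gar1 was at 54.0 and 52.6, 27.3 and 24.8, 79.3 and 74.0, and 69.3 and 67.2 FPKM in the same order. Both were called higher in all 3 pluripotent groups than in NSCs, in hybrid cells by 1.61 for Nop10 and 1.36 for Gar1. Unlike Dkc1, both were also called higher in EPSCs than in ESCs, by 0.37 and 0.51. The ratio of Dkc1 to Nhp2 was 0.319 in NSCs, against 0.404 in hybrid cells, 0.434 in ESCs and 0.473 in EPSCs, and the lowest pluripotent library (0.365) lay above both NSC libraries.

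**Figure D1:**
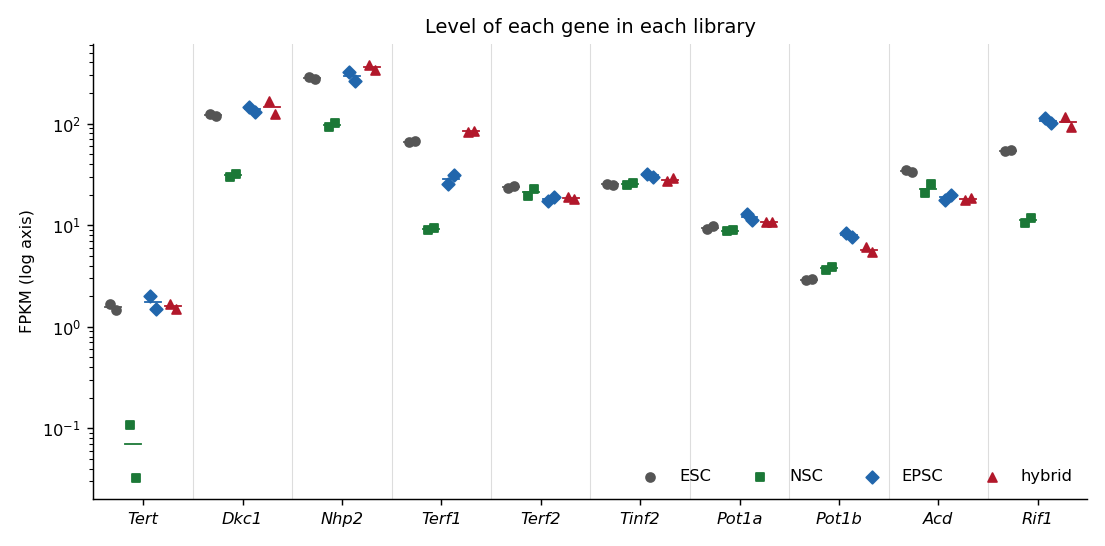
FPKM of the 10 genes in each of the 8 libraries, on a log axis; each symbol is 1 library, colour and shape give the group, and the short line is the mean of the 2 libraries. Tert is at 0.109 and 0.0322 FPKM in NSCs and at 1.47 to 2.02 elsewhere, and Terf1 separates all 4 groups, with hybrid cells highest at 82.2 and 85.3 FPKM.

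Terf1, which binds the double-stranded repeat and acts in its replication, differed between all 4 groups and was the one of the 10 genes in which hybrid cells departed most from their EPSC parent. Its level was 65.8 and 66.8 FPKM in ESCs, 8.87 and 9.41 in NSCs, 25.6 and 30.9 in EPSCs, and 82.2 and 85.3 in hybrid cells. No libraries of any pair of groups overlapped, and the order from low to high was NSCs, EPSCs, ESCs and hybrid cells. Hybrid cells were above both parents. On the log2(FPKM + 1) scale they were 1.54 ± 0.09 (SE) above EPSCs (adjusted p = 9.7e-05 in limma), a ratio of means of 2.96, and Terf1 ranked 80 from the top among 13239 genes in this comparison. They were 3.06 above NSCs (adjusted p = 3.6e-08). EPSCs were 1.52 above NSCs (1.2e-06) and 1.21 below ESCs (3.7e-05), and ESCs were 2.73 above NSCs (6.3e-08).

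Hybrid cells were also 0.33 above ESCs in Terf1 (adjusted p = 0.0112 in limma), but this smaller difference was not called without ESC replicate 1 (0.32) or replicate 2 (0.34), nor with libraries scaled to a sum of 1000000 (0.27). On a scale where NSCs are 0 and EPSCs are 1, in log2(FPKM + 1), hybrid cells stood at 2.00 for Terf1. For the other genes with a parental gap of over 1, they stood at 0.94 (Tert), 0.99 (Rif1), 1.04 (Dkc1) and 1.18 (Nhp2). The called differences of Terf1 from EPSCs and from NSCs held in all 16 alternatives.

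Terf1 lies on chromosome 1 of GRCm38.p6, from 15805546 to 15844052. The 6 tested genes within 1000 kb of it differed between hybrid cells and EPSCs by −0.08 to 0.56, with a median of 0.29, and 3 of them were called higher and 0 lower, where 22.5% and 21.9% of all tested genes were. The 719 tested genes of chromosome 1 had a median of 0.12, against 0 for all genes. All 6 neighbours differed by less than Terf1, and the part of any chromosome-wide shift in its difference was not tested.

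Terf2, the other double-strand binding protein, which guards the end against fusion, varied less than Terf1 in FPKM as deposited. It stood at 23.1 and 24.6 FPKM in ESCs, 19.3 and 22.8 in NSCs, 17.3 and 19.1 in EPSCs, and 18.7 and 18.0 in hybrid cells. ESC libraries were the highest, hybrid cells and EPSCs overlapped, and both lay below the NSC libraries. The difference from NSCs was −0.18 in hybrid cells (95% interval −0.39 to 0.03) and −0.20 in EPSCs (−0.41 to 0.02), neither called, though both were called without NSC replicate 1 (−0.30 and −0.31) and with libraries scaled to a sum of 1000000 (−0.79 and −0.80, where that scaling puts the median of all genes at −0.50 and −0.48). Against ESCs, Terf2 was lower by 0.37 in EPSCs (adjusted p = 0.00942 in limma) and by 0.36 in hybrid cells (0.0102). The first call was lost without EPSC replicate 1 (−0.31) or ESC replicate 2 (−0.33), and the second without ESC replicate 2 (−0.32). ESCs differed from NSCs by 0.18 (95% interval −0.04 to 0.39), which was called without NSC replicate 2 (0.30) and turned to −0.36, called, under the sum scaling. Terf2 lies on chromosome 8, which has 675 tested genes. Their median was −0.26 in EPSCs against ESCs, −0.39 in hybrid cells against ESCs and 0.34 in ESCs against NSCs. The medians of all tested genes were 0.04, 0.04 and 0.03. The part of this shift in the Terf2 differences was not tested.

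Tinf2 was nearly level, and highest in EPSCs. It stood at 25.6 and 24.9 FPKM in ESCs, 24.8 and 26.1 in NSCs, 31.9 and 30.1 in EPSCs, and 26.9 and 29.1 in hybrid cells. EPSC libraries lay above all others, and ESCs and NSCs overlapped. EPSCs were higher than NSCs by 0.27 (adjusted p = 0.00421 in limma, not called after quantile normalization, 0.13, and called lower, −0.33, with libraries scaled to a sum of 1000000) and than ESCs by 0.28 (0.0064), the latter not called without ESC replicate 2 (0.26). Hybrid cells did not differ from any group at the threshold: the difference was 0.13 from NSCs (95% interval −0.02 to 0.28, called higher without hybrid replicate 1, 0.19, and lower under the sum scaling, −0.48), −0.14 from EPSCs (−0.29 to 0.01) and 0.14 from ESCs (−0.01 to 0.29, called without hybrid replicate 1, 0.19). Tinf2 shares 1540 of its 4938 annotated exon bases with Gmpr2 on the opposite strand, and 33% of the 100-base windows of its longest coding transcript recur in Gmpr2 transcripts. Gmpr2 stood at 23.3 FPKM in NSCs, 16.8 in hybrid cells, 16.0 in EPSCs and 11.7 in ESCs. If strand was not used in counting, which is not given in the sources used here, reads of the shared bases cannot be assigned to either gene.

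The Pot1 duplicates differed in the size of their changes. Pot1a, which in mice protects the end from the DNA damage response, stood at 9.11 and 9.76 FPKM in ESCs, 8.70 and 8.87 in NSCs, 12.9 and 11.3 in EPSCs, and 10.8 and 10.7 in hybrid cells. Pot1b, which in mice limits resection of the end, stood at 2.86 and 2.96 FPKM in ESCs, 3.60 and 3.90 in NSCs, 8.34 and 7.59 in EPSCs, and 6.07 and 5.38 in hybrid cells. No libraries of any pair of groups overlapped for either gene. Pot1b ordered the groups as ESCs, NSCs, hybrid cells and EPSCs from low to high, and Pot1a differed from this only in that NSCs were below ESCs.

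For Pot1b, EPSCs were 1.20 ± 0.09 (SE) above ESCs (adjusted p = 4.4e-05 in limma) and 0.92 above NSCs (3e-05, and 0.43, still called, under the sum scaling). Hybrid cells were 0.78 above ESCs (0.000211), 0.50 above NSCs (0.00103, but −0.01 and not called under the sum scaling) and 0.41 below EPSCs (0.00883). In FPKM as deposited this put them at 0.55 of the way from NSCs to EPSCs, whereas under the sum scaling they stood level with NSCs. The difference from EPSCs was not called when only the 2 groups were fitted. ESCs were 0.28 below NSCs (0.0196), a call lost without either ESC library (−0.26 and −0.30) or NSC replicate 2 (−0.24), and turned to 0.09, not called, by quantile normalization. Under the sum scaling this difference was larger (−0.80) and called. For Pot1a, EPSCs were 0.42 above NSCs (0.00164, but −0.15 and not called under the sum scaling) and 0.33 above ESCs (0.0101, not called without ESC replicate 1, 0.28). Hybrid cells were 0.26 above NSCs in Pot1a (0.0163), which was not called without either NSC library (0.25 and 0.28) and turned to −0.31, called lower, with libraries scaled to a sum of 1000000. Their Pot1a difference was −0.15 from EPSCs (95% interval −0.35 to 0.04) and 0.17 from ESCs (−0.02 to 0.36), and that of ESCs from NSCs was 0.09 (−0.10 to 0.28), called lower under the sum scaling (−0.43) and higher after quantile normalization (0.37).

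The ratio of Pot1b to Pot1a, taken within each library and so free of library scaling, was 0.314 and 0.303 in ESCs, 0.414 and 0.439 in NSCs, 0.645 and 0.673 in EPSCs, and 0.564 and 0.501 in hybrid cells. The 4 groups did not overlap. An exact two-sided permutation test of 2 libraries against 2 gave p = 0.333 for each of the 6 comparisons, the smallest p it allows. The transcripts are 77.7% identical over 2164 aligned bases and share no 100-base window.

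Acd, the TPP1 subunit that brings telomerase to the end, was highest in ESCs. It stood at 34.7 and 33.2 FPKM in ESCs, 20.6 and 25.3 in NSCs, 17.9 and 19.8 in EPSCs, and 17.6 and 18.4 in hybrid cells. ESC libraries lay above all others, and EPSCs and hybrid cells overlapped below NSCs. Against ESCs, Acd was lower by 0.82 ± 0.10 (SE) in EPSCs (adjusted p = 0.000376 in limma) and by 0.88 in hybrid cells (0.000208). ESCs were 0.55 above NSCs (0.00115), but 0.02 and not called with libraries scaled to a sum of 1000000. The smaller differences from NSCs, −0.32 in hybrid cells (0.0168) and −0.26 in EPSCs (0.038), rested on single libraries in FPKM as deposited. The first was not called without NSC replicate 2 (−0.18) or hybrid replicate 1 (−0.29), and the second without NSC replicate 2 (−0.12), EPSC replicate 1 (−0.19), or either ESC library (−0.26 in both), nor with no filter on low values or only the 2 groups fitted. Under the sum scaling, which lowers differences from NSCs throughout, they were larger, at −0.94 and −0.87, and both called. Hybrid cells differed from EPSCs by −0.06 (95% interval −0.29 to 0.18). Acd lies on chromosome 8, as Terf2 does, and the medians of that chromosome are given with Terf2. The part of that shift in the Acd differences was not tested. Acd shares 1208 of its 3625 exon bases with Carmil2 on the opposite strand, and 18.6% of the 100-base windows of its longest coding transcript recur there. Carmil2, listed under an older symbol, stood at 5.41 FPKM in ESCs, 3.44 in EPSCs, 2.79 in hybrid cells and 0.363 in NSCs. For the other 8 genes, no 100-base window was shared with another gene.

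Terf2ip (RAP1), the shelterin subunit outside the 10 genes, binds Terf2. It stood at 9.75 and 9.85 FPKM in ESCs, 8.09 and 7.43 in NSCs, 6.48 and 6.82 in EPSCs, and 6.53 and 5.60 in hybrid cells. As with Acd, ESCs were highest and EPSCs and hybrid cells lowest. Both hybrid cells (−0.62) and EPSCs (−0.50) were called lower than ESCs, hybrid cells were called lower than NSCs (−0.31), and ESCs higher than NSCs (0.30). The calls of Terf2ip against ESCs held in every alternative. That of hybrid cells against NSCs was lost without NSC replicate 1 (−0.26) and after quantile normalization (0.02), and that of ESCs against NSCs without either ESC library (0.31 and 0.30) or NSC replicate 2 (0.25), and with libraries scaled to a sum of 1000000 (−0.20). Under that scaling, hybrid cells (−0.91) and EPSCs (−0.78) were both called lower than NSCs.

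Summed over Terf1, Terf2, Tinf2, Pot1a, Pot1b and Acd, shelterin transcripts amounted to 161 and 162 FPKM in ESCs, 85.8 and 96.4 in NSCs, 114 and 119 in EPSCs, and 162 and 167 in hybrid cells. Most of this difference was Terf1. The 5 others summed to 95.5 and 95.4 FPKM in ESCs, 76.9 and 87.0 in NSCs, 88.3 and 87.9 in EPSCs, and 80.1 and 81.6 in hybrid cells, so that in FPKM as deposited hybrid cells lay within the range of the NSC libraries. With libraries scaled to a sum of 1000000, the 5 summed to 185 and 209 in NSCs, above 125 and 129 in hybrid cells, 135 and 142 in EPSCs, and 154 and 159 in ESCs, and the 6 summed to 207 and 232 in NSCs, 252 and 263 in hybrid cells, 174 and 192 in EPSCs, and 261 and 270.0 in ESCs. Terf1 made up 50.9% of the sum in hybrid cells, 41.0% in ESCs, 24.3% in EPSCs and 10.1% in NSCs (means, n = 2, SD 0.326, 0.258, 2.49 and 0.402 percentage points). Relative to Terf2, it stood at 2.84 and 2.72 in ESCs, 0.461 and 0.413 in NSCs, 1.48 and 1.62 in EPSCs, and 4.38 and 4.73 in hybrid cells. These shares and ratios did not overlap between groups, and the exact permutation test of 2 against 2 gave p = 0.333, its smallest value, in each of the 6 comparisons. Terf1 exceeded Terf2 in every library outside NSCs and fell short of it in both NSC libraries.

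**Figure D2:**
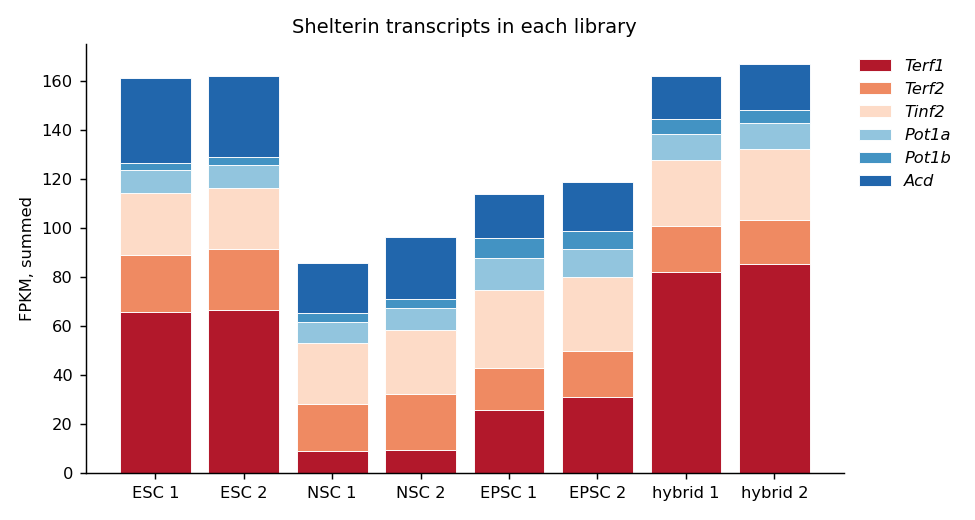
Summed FPKM of the 6 shelterin genes in each library, 1 bar for each library and 1 colour for each gene. The Terf1 segment runs from 8.87 FPKM in NSCs to 85.3 in hybrid cells, while the 5 other genes together stay between 76.9 and 95.5 FPKM.

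**Figure D3:**
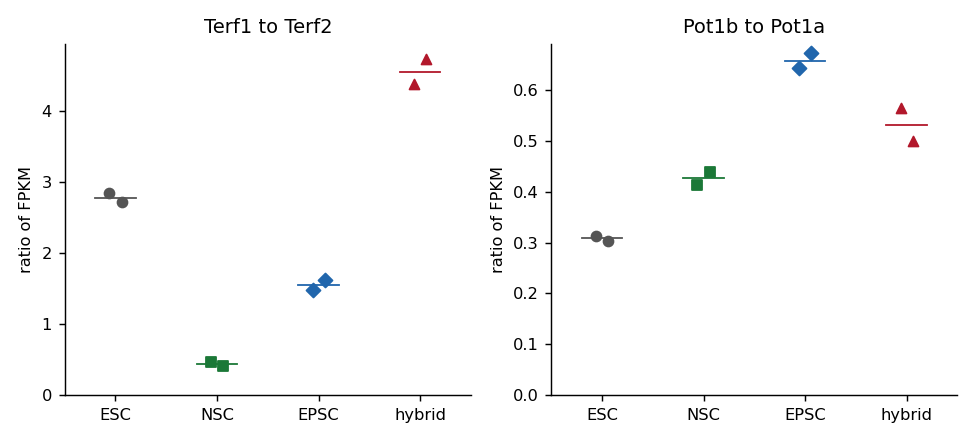
Ratio of FPKM of Terf1 to Terf2 (left) and of Pot1b to Pot1a (right) in each library; symbols are libraries and short lines are means of 2. Hybrid cells have the highest Terf1 to Terf2 ratio (4.38 and 4.73), and EPSCs the highest Pot1b to Pot1a ratio (0.645 and 0.673).

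Rif1 differed between hybrid cells and NSCs about as much as Terf1 on the log2(FPKM + 1) scale, and it also separated EPSCs and hybrid cells from ESCs. It lies on chromosome 2 of GRCm38.p6, from 52072815 to 52126769. It stood at 53.9 and 54.6 FPKM in ESCs, 10.6 and 11.9 in NSCs, 112 and 102 in EPSCs, and 116 and 93.1 in hybrid cells. EPSCs and hybrid cells overlapped, both lay above ESCs, and ESCs lay above NSCs. Rif1 was higher than in NSCs by 3.10 ± 0.11 (SE) in hybrid cells, 3.15 in EPSCs and 2.18 in ESCs, with limma adjusted p-values of 9.7e-08, 9e-08 and 6.1e-07. It was higher than in ESCs by 0.97 in EPSCs (0.000244) and 0.92 in hybrid cells (0.000232). The difference between hybrid cells and EPSCs was −0.04, with a 95% interval from −0.30 to 0.21.

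The 10 genes can be read by comparison as well, against the share of all tested genes that was called. In hybrid cells against NSCs, which asks how the somatic partner's state differs from that of the fused cells, 7 of the 10 were called higher (Tert, Terf1, Pot1a, Pot1b, Rif1, Dkc1 and Nhp2), where 44.5% of all tested genes were, and 1 was called lower (Acd), where 42% were. Over 2-fold on the log2(FPKM + 1) scale, 5 were higher (Tert, Terf1, Rif1, Dkc1 and Nhp2) against 23.3% of all genes, and 0 were lower against 23.9%. By the rule in the methods of the study, a mean over 3 FPKM and a ratio of means over 3 with no test, Terf1, Rif1, Dkc1 and Nhp2 were higher, 4 of the 10, where 6.92% of the 24354 listed genes were, and 0 were lower, where 8.87% were. The median difference over the 10 genes was 0.89, against 0.06 over all tested genes. Scaling each library to a sum of 1000000 moved the median of all genes to −0.50, and the differences of Tinf2 (−0.48), Pot1a (−0.31) and Pot1b (−0.01) then turned negative, while remaining above that median. Under this scaling 5 of the 10 were called higher (Tert, Terf1, Rif1, Dkc1 and Nhp2) and 4 lower (Terf2, Tinf2, Pot1a and Acd), and of all genes called 34.5% were higher, against 51.5% with FPKM as deposited.

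In EPSCs against NSCs, 8 were called higher (the 7 above and Tinf2), where 45.2% of tested genes were, and 1 lower (Acd), where 41% were. Over 2-fold, the 5 genes named above were higher, where 23% of genes were, and 0 were lower, where 23.9% were. By the rule of the study, Terf1, Rif1, Dkc1 and Nhp2 were again higher, where 6.7% of listed genes were, and 0 lower, where 8.94% were. These contrasts share the NSC libraries, so their calls are not independent. The sum scaling moved the median of all genes from 0.08 to −0.48, and Tinf2 (−0.33) and Pot1a (−0.15) turned negative, with 6 of the 10 called higher and 3 lower (Terf2, Tinf2 and Acd) and 35.0% of all calls higher, against 52.4%. Terf1 (0.98) and Nhp2 (0.97) were still called higher under it but fell below 2-fold.

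Between hybrid cells and EPSCs, which sets the fused cells beside their pluripotent parent, 1 of the 10 was called higher (Terf1), where 22.5% of tested genes were, and 1 lower (Pot1b), where 21.9% were. Over 2-fold, Terf1 was higher, where 2.21% of genes were, and 0 were lower, where 1.35% were. By the rule of the study, 0 were higher, where 0.567% of listed genes were, and 0 lower, where 0.3% were, the Terf1 ratio being 2.96. Without hybrid replicate 2, 4 of the 10 were called, with Dkc1 and Nhp2 added, where 41.8% of tested genes were called in either direction, against 44.4% with all libraries. With only these 2 groups fitted, 1 of the 10 was called (Terf1, higher), where 21.2% of tested genes were called in either direction. The line, the passage and the ploidy differ between these groups, so their parts cannot be told apart.

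**Figure D4:**
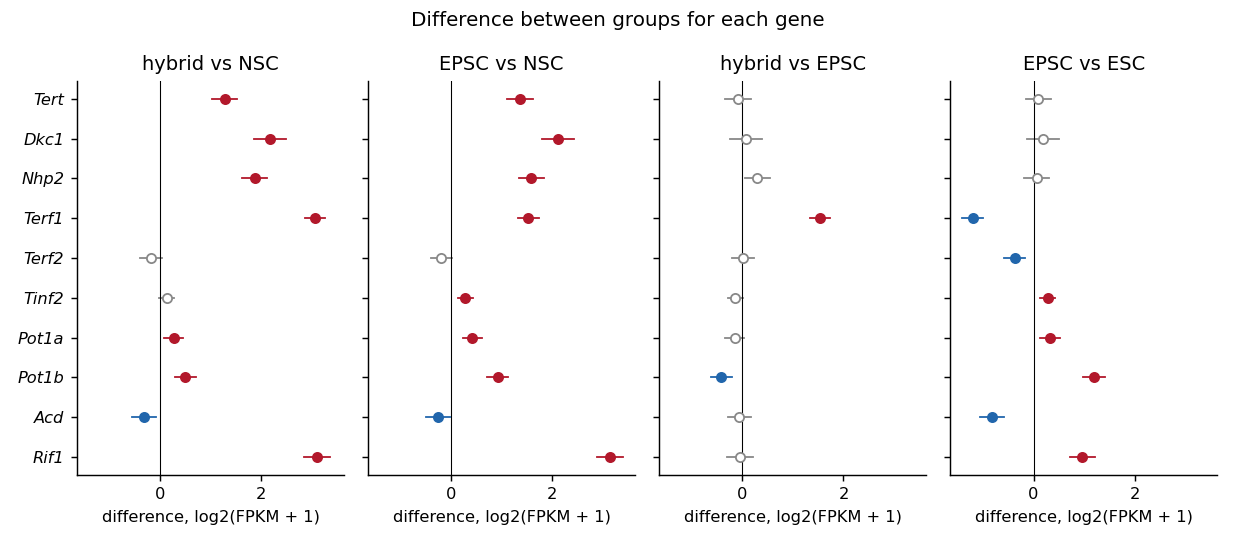
Differences between groups on the log2(FPKM + 1) scale for the 10 genes in 4 comparisons, on a common axis; points are limma estimates, lines are 95% intervals before adjustment, filled red is called higher, filled blue called lower and open grey not called. Between hybrid cells and EPSCs only Terf1 (1.54) and Pot1b (−0.41) are filled.

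In EPSCs against ESCs, 4 of the 10 were called higher (Tinf2, Pot1a, Pot1b and Rif1), where 33.7% of tested genes were, and 3 lower (Terf1, Terf2 and Acd), where 27.3% were. Over 2-fold, Pot1b was higher, where 5.08% of genes were, and Terf1 lower, where 4.81% were. By the rule of the study, 0 were higher, where 1.28% of listed genes were, and 0 lower, where 1.29% were. Tert differed by 0.10 (95% interval −0.16 to 0.35), Dkc1 by 0.18 (−0.14 to 0.50) and Nhp2 by 0.06 (−0.18 to 0.31), none of them called. In hybrid cells against ESCs, 4 were called higher (Terf1, Pot1b, Rif1 and Nhp2), where 35.3% of genes were, and 2 lower (Terf2 and Acd), where 30.2% were. Over 2-fold, 0 were higher, where 7.39% were, and 0 lower, where 6.16% were, and by the rule of the study 0 were higher, where 1.98% of listed genes were, and 0 lower, where 1.65% were. Without ESC replicate 2, 3 of the 10 were called (Pot1b and Rif1 higher, Acd lower), and without ESC replicate 1, 4 were (Terf2 lower as well), where 52.6% of tested genes were called in both cases, against 65.5% with all libraries. Dkc1 differed by 0.24 (95% interval −0.07 to 0.56). The strain, the medium and the line differ between E14 ESCs and EPSCs, so their parts cannot be told apart.

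In ESCs against NSCs, 6 of the 10 were called higher (Tert, Terf1, Acd, Rif1, Dkc1 and Nhp2), where 42.8% of tested genes were, and 1 lower (Pot1b), where 41.9% were. Over 2-fold, 5 were higher (the same 5 as for hybrid cells), where 21% were, and 0 lower, where 23.6% were. By the rule of the study, Terf1, Rif1 and Dkc1 were higher, where 6.34% of listed genes were, and 0 lower, where 8.65% were. Under the sum scaling the median of all genes moved from 0.03 to −0.46, the Acd difference fell to 0.02 and was not called, and Terf2 (−0.36) and Pot1a (−0.43) turned negative, with 5 of the 10 called higher and 4 lower (Terf2, Tinf2, Pot1a and Pot1b) and 34.2% of all calls higher, against 50.5%. Nhp2 (0.98) was still called higher under it but fell below 2-fold.

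The text of the study also names lower thresholds, a mean over 2 FPKM and a ratio over 2, and these were applied after the results had been seen. In hybrid cells against NSCs, 4 of the 10 were then higher (the same 4), where 12.5% of listed genes were, and 0 lower, where 13.6% were. In EPSCs against NSCs, 5 were higher, with Pot1b added, where 12.3% were, and 0 lower, where 13.4% were. In ESCs against NSCs, 4 were higher, with Nhp2 added, where 11.1% were, and 0 lower, where 13.4% were. Between hybrid cells and EPSCs, Terf1 alone was higher, where 1.95% were, and 0 lower, where 1.16% were. In EPSCs against ESCs, Pot1b was higher, where 3.51% were, and Terf1 lower, where 3.56% were. In hybrid cells against ESCs, 0 were higher, where 4.69% were, and 0 lower, where 4.25% were.

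Other genes of the pathway were counted by list, and each list is described beside the share of all tested genes called in the same comparison (44.5% higher and 42% lower in hybrid cells against NSCs). The 11 genes of telomerase biogenesis and recruitment were all called higher in hybrid cells than in NSCs, with a median of 1.30, and likewise in EPSCs, where 45.2% of tested genes were called higher, and in ESCs, where 42.8% were. With libraries scaled to a sum of 1000000, 9 were called higher and 1 lower in hybrid cells, with a median of 0.70, and 8 higher and 0 lower in EPSCs and in ESCs. Under that scaling 14064 genes were tested against NSCs. Of these, 4244 were called higher and 8055 lower in hybrid cells, 4275 and 7956 in EPSCs, and 4113 and 7913 in ESCs. In FPKM as deposited, the differences of the 11 genes in hybrid cells against NSCs ran from Naf1, an H/ACA assembly factor, at 0.34 to Nop10 at 1.61. Between hybrid cells and EPSCs, 1 of the 11 was called higher (Wrap53, 0.67, which directs telomerase to Cajal bodies) and 1 lower (Naf1, −0.39), where 22.5% and 21.9% of tested genes were, and 1 and 3 under the sum scaling, where 2890 and 2934 of 14064 tested genes were. Wrap53 is named here after its value was seen, as the single gene behind its count. The 8 genes of box C/D small nucleolar particles and nucleolar assembly were also all called higher in hybrid cells than in NSCs, each by over 2-fold, with a median of 1.92, from Fbl (1.12) to Npm1 (3.01), and all 8 were also called higher under the sum scaling, with a median of 1.32. This list, shortened to box C/D genes below, also holds nucleolar proteins outside those particles, such as Npm1.

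The CST complex and the replication proteins that complete telomeric ends moved in both directions. In hybrid cells against NSCs, 8 of 12 were called higher and 2 lower, from Ten1 (−0.96), a CST subunit, to Rtel1 (1.24), a helicase that resolves telomeric loops. For end processing and repair, 7 of 9 were higher and 2 lower, with the largest rise in Xrcc5 (2.15), the Ku80 subunit. For telomere chromatin and poly-ADP-ribosylation, 6 of 9 were higher and 3 lower, from Hmbox1 (−1.70), which binds telomeric repeats, to Atrx (1.55), a chromatin remodeller. Of the partners of Rif1, 2 of 6 were higher and 2 lower, from Mad2l2 (−1.15), a shieldin subunit, to Ppp1ca (0.92), a catalytic subunit of protein phosphatase 1. Of 9 tested factors reported to act on the Tert promoter, 5 were higher and 4 lower, from Myc (−1.71), which fell from 36.4 FPKM in NSCs to 10.6 in hybrid cells, to Klf4 (4.84), which rose from 2.11 to 88.0. Within this list, Mycn and Max, named after their values were seen, went the other way from Myc, with differences of 4.07 and 0.76. Under the sum scaling, which lowers differences from NSCs throughout, the counts higher and lower were 4 and 4 for CST and replication, 4 and 4 for end processing, 4 and 3 for telomere chromatin, 2 and 4 for the partners of Rif1, and 3 and 4 for the Tert promoter factors. Of all 14064 genes tested under that scaling, 4244 were called higher and 8055 lower.

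**Figure D5:**
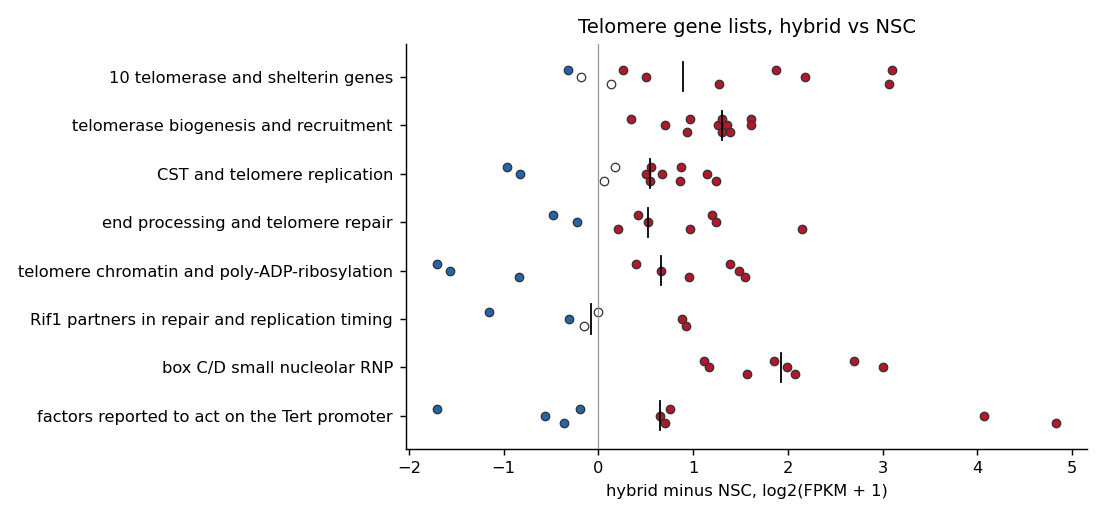
Difference of hybrid cells from NSCs on the log2(FPKM + 1) scale for the 10 genes and for 7 lists of related genes; each point is 1 gene, red called higher, blue called lower and white not called, the black line is the median of the list, and small vertical offsets only keep points apart. The 11 biogenesis genes lie between 0.34 and 1.61, all called higher. The 8 genes of box C/D particles and nucleolar assembly lie between 1.12 and 3.01, all called higher.

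In the comparison of EPSCs with ESCs, the same lists gave 6 higher and 2 lower of 11 for telomerase biogenesis, 6 and 4 of 12 for CST and replication, 9 and 0 of 9 for end processing, 5 and 2 of 9 for telomere chromatin, 3 and 0 of 6 for the partners of Rif1 (1 and 0 after quantile normalization), 3 and 0 of 8 for box C/D genes (1 and 2 after quantile normalization), and 2 and 5 of 9 for the Tert promoter factors, beside 33.7% and 27.3% of all tested genes. After quantile normalization, 4051 of the 13239 tested genes were called higher and 3868 lower. Between hybrid cells and EPSCs they gave 5 higher and 2 lower of 12 for CST and replication, 4 and 1 of 9 for end processing, 2 and 2 of 9 for telomere chromatin, 2 and 1 of 6 for the partners of Rif1, 1 and 1 of 8 for box C/D genes, and 4 and 1 of 9 for the Tert promoter factors, beside 22.5% and 21.9% of all tested genes.

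Across the 8 libraries, which fall into 4 groups, correlations describe the pattern and carry no test. Tert, Rif1, Dkc1 and Nhp2 went together, with Pearson's r of log2(FPKM + 1) between 0.956 and 0.989 for every pair of them. Terf1 followed them less closely (0.783 to 0.897). Terf2 and Acd formed another pair (0.944), as did Tinf2 with Pot1b (0.916) and with Pot1a (0.913), Pot1a went with Pot1b (0.886), and Pot1b ran against Acd (−0.834) and Terf2 (−0.832). Terf2 and Acd both lie on chromosome 8, whose medians are given with Terf2, and the part of that shift in their r was not tested. The tested genes most like Tert were Utp3, Rasgrp2 and Polr2j (0.998, 0.997 and 0.997), but 10.9% of the 13238 other genes exceeded 0.95. For Rif1 they were Nit2, 2700060E02Rik and Drosha (0.999 each), with 10.3% of genes over 0.95. For Pot1b they were Ggct, Txnl1 and Yes1 (0.996, 0.994 and 0.993), with 0.740% of genes over 0.95. For Terf1, added after its values were seen, they were Aamp, Dpp7 and Igf2bp2 (0.998, 0.997 and 0.997), with 1.53% over 0.95. 

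Compared per length, the 10 genes kept much of their rank across groups. Nhp2 was the most abundant in every group and Tert the least. Dkc1 came second to Nhp2 in every group. Rif1 exceeded Terf1 in NSCs, EPSCs and hybrid cells and fell below it in ESCs.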

How the data were processed

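Polyadenylated RNA from 8 libraries (2 each of hybrid cells, EPSCs, NSCs and ESCs) was prepared by the authors with a stranded kit, trimmed with skewer, aligned to mm10 with STAR 2.7.9a and quantified with Cuffnorm of Cufflinks 2.2.1, per the labels and the methods of the study. The deposited values are FPKM per gene and library, without pooling. The gene annotation, the strand setting and the library normalization are not given in the sources used here. Columns were matched to groups by the sample labels, and 0 columns belonged to other samples.

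FPKM were used as deposited and log2(FPKM + 1) was fitted in R 4.3.3 with limma 3.58.1 (lmFit, contrasts.fit, eBayes with trend, two-sided, 4 residual degrees of freedom). Fold changes are on that scale. The model was tested on simulated data. Other steps used Python 3.11.15, pandas 2.3.3, scipy 1.17.1 and matplotlib 3.10.9. Depth was inferred from the steps between FPKM values of 2247 genes, with an assumed fragment of 200 bases, and fragment numbers derived from it are approximate and cover counting error only. Positions and promoters are from RefSeq GRCm38.p6, and transcripts and exon overlaps from GENCODE M21, both on the build of the files.

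Every one of the 10 genes is named. From each list of related genes, those with the largest and smallest difference of hybrid cells from NSCs are named, with Terf2ip, Nop10 and Gar1, except that 1 gene is not reported here. For Tert, Pot1b and Rif1, the 3 genes with the highest r are named. The genes and lists were chosen with earlier results of these data known. Alternatives covered the added constant (0.1), the filter (none, or a mean of 3), scaling to a sum of 1000000, median-of-ratios and quantile scaling, a fit of only the 2 groups compared, a replicate block, and each library left out.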

Additional observations from a re-analysis of the deposited data

How the results depend on the processing

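Of 954 alternative values of the differences of the 10 genes, 882 kept their direction and their side of the threshold, 28 kept their direction but lost the call, 16 gained it, and 28 changed sign. Scaling to a sum of 1000000 turned Tinf2 (−0.476), Pot1a (−0.314) and Pot1b (−0.011) in hybrid cells against NSCs, Tinf2 (−0.325) and Pot1a (−0.149) in EPSCs against NSCs, Terf2 (−0.358) and Pot1a (−0.427) in ESCs against NSCs, Nhp2 in EPSCs against ESCs (−0.002) and Tert in hybrid cells against ESCs (−0.032). That scaling shifts all genes against NSCs, as given with the comparisons. Median-of-ratios scaling turned Tert in hybrid cells against ESCs (−0.008) and Tinf2 in ESCs against NSCs (0.024), and quantile normalization turned Tert in hybrid cells against ESCs (−0.047), Nhp2 in EPSCs against ESCs (−0.173) and Pot1b in ESCs against NSCs (0.092). In other cases of turned sign 1 library was left out: the differences then ran, in hybrid cells against EPSCs, from −0.219 to 0.054 (Tert), −0.052 to 0.082 (Terf2), −0.13 to 0.012 (Acd), −0.2 to 0.113 (Rif1) and −0.163 to 0.287 (Dkc1), in EPSCs against ESCs from −0.039 to 0.234 (Tert) and −0.089 to 0.209 (Nhp2), from −0.041 to 0.072 for Tert in hybrid cells against ESCs, and from −0.045 to 0.026 for Tinf2 in ESCs against NSCs. Left-out libraries gave 2 to 4 of the 10 genes called in hybrid cells against EPSCs and 3 to 7 in hybrid cells against ESCs, the lowest without ESC replicate 2, while 4766 to 5539 and 6957 to 8835 of all genes were called. With only the 2 groups fitted, 1 of the 10 and 2811 of all genes were called between hybrid cells and EPSCs, against 2 and 5881 with all 4 groups; the cause was not tested. The libraries share only replicate numbers: with a replicate block, 8, 3, 9, 7, 6 and 7 of the 10 genes were called in hybrid cells against NSCs, hybrid cells against EPSCs, EPSCs against NSCs, EPSCs against ESCs, hybrid cells against ESCs and ESCs against NSCs, beside 86.9%, 45.8%, 86.4%, 62.3%, 66.1% and 85.1% of all tested genes, and the block changed the call of Nhp2 in hybrid cells against EPSCs (0.291, adjusted p = 0.0388 in limma, range over its alternatives 0.0129 to 0.25) and no other. Same-numbered libraries deviated together with r between −0.112 (ESCs and NSCs) and 0.280 (hybrid cells and EPSCs). Crossing the NSC numbers, an alternative chosen after seeing this r, gave 7 of the 10 and 11295 genes called in ESCs against NSCs, against 7 and 11265 uncrossed. The cause of the changed signs and lost calls was otherwise not tested. With 2 libraries a group, and about 4 to 13 fragments of Tert in NSCs, precision is limited to the intervals given.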
